A study of Mus musculus with 2 samples.

Results

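Interleukin 1, tumour necrosis factor, interleukin 6 and the prostaglandin enzymes were described gene by gene in cells of mouse tumours. The 10 genes, Il1a, Il1b, Il1rn, Il1r1, Il1r2, Ptgs1, Ptgs2, Ptges, Tnf and Il6, were taken by symbol from the 56941 genes in the count tables. Each symbol matched 1 row. The choice used no rule on measured values, but earlier results of these data were known. MC38 is a mouse colon adenocarcinoma line. Pools of MC38 cells carrying SPP1 or a control vector, made with a lentivirus and checked for SPP1 by Western blot per the labels, were grown under the skin of C57BL/6 mice, and the label genotype of both is WT. In both groups anti-PD-1 was injected at 10 mg/kg 2 times a week for 2 weeks, from day 7, so no tumour without the antibody was measured. Tumour tissue of 1 mouse per group was dissociated and sequenced as single cells, which gives 1 library labelled SPP1 and 1 library labelled vector. With 1 library per group there is no test between groups, and every interval below is a 95% interval of counting error only, exact Poisson for levels, exact binomial for shares and exact conditional binomial for ratios.

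The libraries held 14029 and 14317 cell barcodes, labelled SPP1 and labelled vector, of which 13498 and 13845 were kept, with medians of 10132 and 10213 unique molecular identifiers (UMIs) per cell. A UMI marks 1 captured RNA molecule, and levels are given as CPM, the UMIs of a gene scaled to a fixed total of UMIs in the summed cells, which compare 1 gene between groups of cells but not 1 gene with another. Counts of mouse Spp1 in the tumour compartment stood at 124 CPM labelled SPP1 and 133 CPM labelled vector, so the label is not borne out by the counted gene. Whether the introduced SPP1 would be counted as mouse Spp1 could not be checked, so these counts do not settle the label. Every direction between the libraries below rests on the labels alone. The libraries shared 93 barcodes, and of the 85 kept in both, 45 (52.9%) had the same class in both, where 54.2% would if the classes were independent.

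Interleukin 1 alpha and beta are ligands that signal through the receptor encoded by Il1r1. Il1rn encodes the receptor antagonist, which occupies that receptor without signalling, and Il1r2 encodes a decoy that binds the ligands without a signalling domain. Ptgs1 and Ptgs2 encode the cyclooxygenases COX-1 and COX-2, which turn arachidonic acid into prostaglandin H2, and Ptges encodes the inducible synthase that makes prostaglandin E2 from it. Tnf and Il6 encode inflammatory cytokines, and in tumours these signals are known to pass between myeloid cells, stroma and malignant cells.

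The stretches of DNA just before 4 of the genes are shown because 2 of them, Il1b and Ptgs2, were high in the same macrophages, Ptgs1 was not, and Il6 was high in a few clusters. The 250 bases before the RefSeq start are printed 5′ to 3′ on the strand of the gene, from RefSeq on build GRCm38.p6, with capitals for matches to TATAAA, to TTGCNNAA or to the kappa B motif.
Il1b, chr2:129371140-129371389, minus strand: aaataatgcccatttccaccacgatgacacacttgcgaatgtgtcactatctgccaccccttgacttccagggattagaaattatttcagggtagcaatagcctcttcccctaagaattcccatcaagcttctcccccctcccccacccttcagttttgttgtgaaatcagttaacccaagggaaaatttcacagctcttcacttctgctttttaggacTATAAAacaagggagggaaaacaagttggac
Ptgs2, chr1:150099781-150100030, plus strand: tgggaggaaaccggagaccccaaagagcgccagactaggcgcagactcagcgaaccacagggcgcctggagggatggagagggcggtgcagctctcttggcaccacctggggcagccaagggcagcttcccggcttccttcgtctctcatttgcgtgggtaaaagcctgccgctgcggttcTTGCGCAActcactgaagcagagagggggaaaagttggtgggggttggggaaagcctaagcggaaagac
Ptgs1, chr2:36230176-36230425, plus strand: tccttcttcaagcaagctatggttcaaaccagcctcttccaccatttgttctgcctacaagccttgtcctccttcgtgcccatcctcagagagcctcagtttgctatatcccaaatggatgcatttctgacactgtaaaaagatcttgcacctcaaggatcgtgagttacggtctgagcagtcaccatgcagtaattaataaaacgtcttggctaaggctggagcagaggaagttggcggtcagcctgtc
Il6, chr5:30012864-30013113, plus strand: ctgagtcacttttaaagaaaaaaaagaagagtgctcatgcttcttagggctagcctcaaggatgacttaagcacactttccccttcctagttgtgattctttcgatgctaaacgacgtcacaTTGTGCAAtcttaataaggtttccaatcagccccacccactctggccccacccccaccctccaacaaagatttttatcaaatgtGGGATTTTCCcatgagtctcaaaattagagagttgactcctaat
All 10 genes matched the table, 8 of them with 1 window, and both strands were searched. TATAAA lay 31 bases before the start of Il1b, and the windows of Il1a and Tnf, not printed, also held it. TTGCNNAA was found 69 bases before the start of Ptgs2, where the match reads the same on both strands, and 128 bases before the start of Il6 on the opposite strand. A kappa B match began 44 bases before the start of Il6. Windows of Il1r1, not printed, held TTGCNNAA and a kappa B match. None of the motifs was in the Ptgs1 window. Of 32851 windows in the table, 12.4% held TATAAA, 9.56% held TTGCNNAA and 7.25% held the kappa B motif. These matches describe letters in a window and were not tested as sites.

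Cells were grouped without the 10 genes and named from marker genes. The groups compared below are 669 and 853 macrophage/monocyte-like cells and 9729 and 9636 cells of the tumour compartment, labelled SPP1 and labelled vector. Smaller groups were dendritic-like (26 and 47 cells), T-like (87 and 149), NK-like (49 and 79), fibroblast-like (41 and 41) and endothelial-like (38 and 26). The 14 macrophage markers summed to 20394 CPM labelled SPP1 and 16443 CPM labelled vector in macrophage/monocyte-like cells, against 37.6 CPM and 33.0 CPM in the tumour compartment. Neutrophils also make interleukin 1, and no neutrophil group was found. The 9 neutrophil markers summed to 42.5 CPM and 39.8 CPM in macrophage/monocyte-like cells, labelled SPP1 and labelled vector. Of the 9, 2 stood at 10 CPM or more in both libraries. Only Camp and Ngp, which encode granule proteins of neutrophils, were at 0 in both. Whether some neutrophils lay among these cells was not tested.

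**Figure D1:**
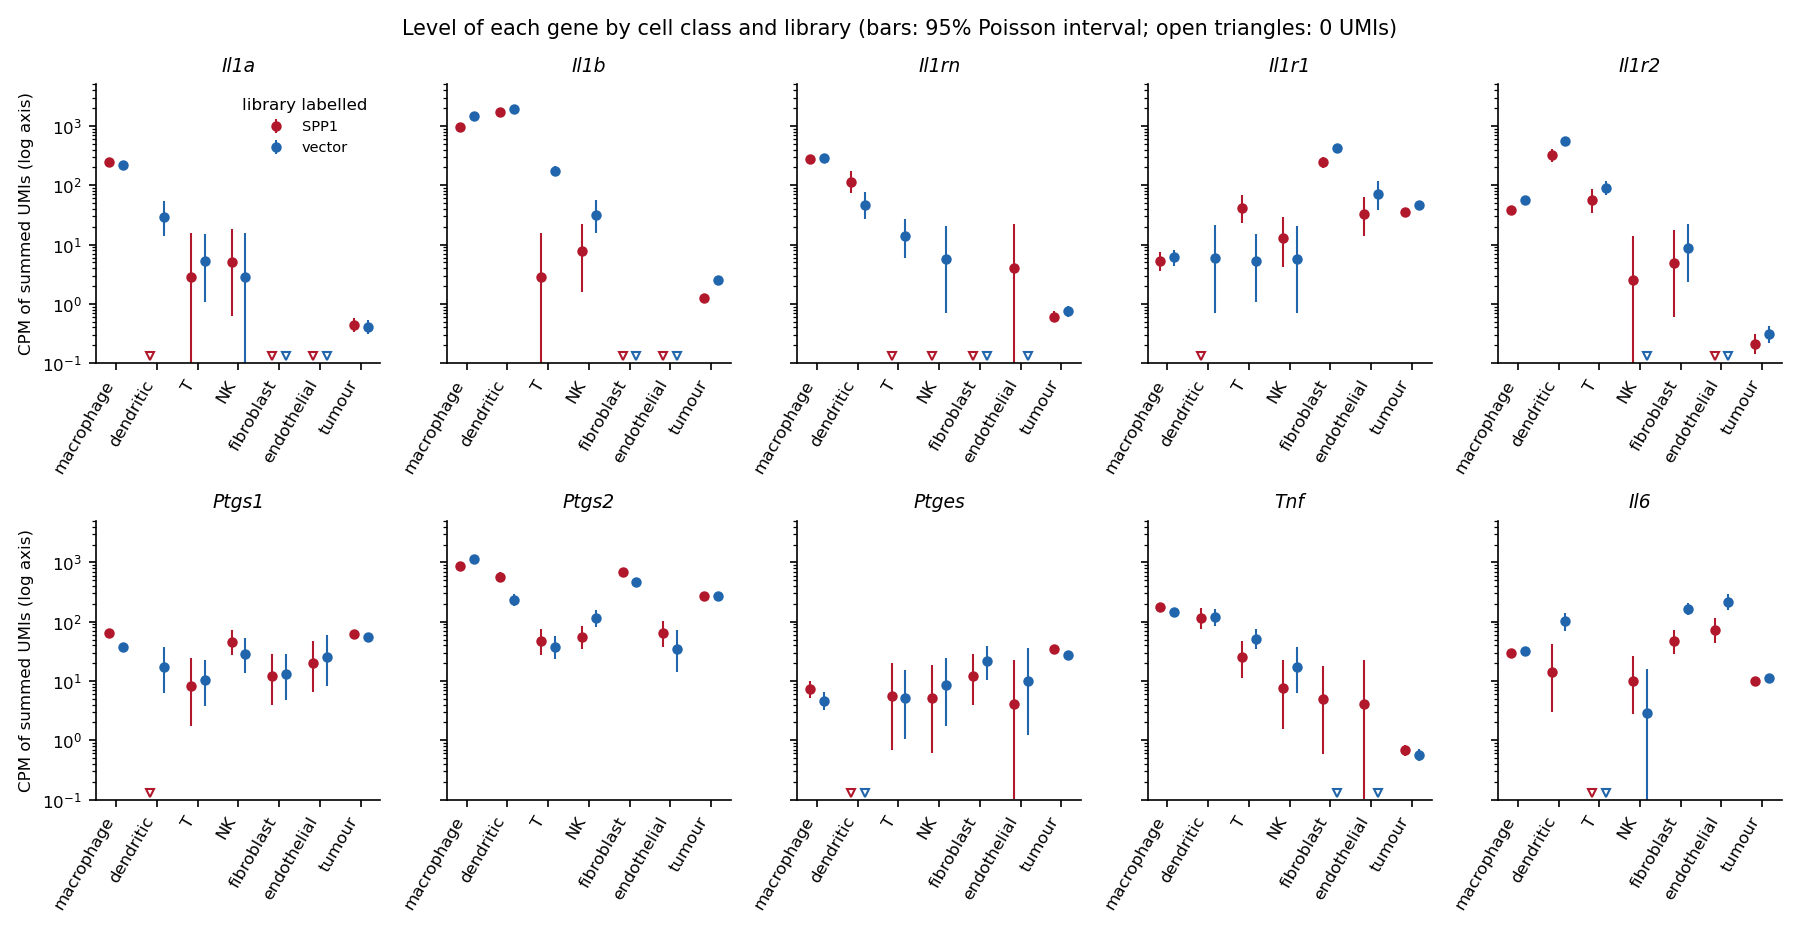
Level of each of the 10 genes in 7 cell classes, as CPM of summed UMIs on a log axis, with the library labelled SPP1 left of the library labelled vector. Points are single libraries, bars are 95% Poisson intervals and open triangles mark 0 UMIs. Il1a, Il1b, Il1rn and Tnf are high in macrophages and near the bottom of the axis in the tumour compartment, while Il1r1 is high in fibroblasts and the tumour compartment.

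Transcripts of the interleukin 1 ligands and of the antagonist lay mostly in macrophages. Of all Il1b UMIs in kept cells, macrophage/monocyte-like cells held 85.5% in the library labelled SPP1 and 85.5% in the library labelled vector. The same class held 89.5% and 90.3% of Il1a, 87.4% and 86.4% of Il1rn, and 81.7% and 80.8% of Tnf, labelled SPP1 and labelled vector. Dendritic-like cells were also high in Il1b, at 1686 CPM (1514 to 1873) labelled SPP1 and 1911 CPM (1767 to 2062) labelled vector, from 26 and 47 cells. They held 5.72% and 5.45% of its UMIs. Il1a, Il1b and Il1rn had 0 UMIs in the fibroblast-like cells of both libraries, where the floor of 3 UMIs lies at 7.42 CPM labelled SPP1 and 6.46 CPM labelled vector.

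The T-like cells of the library labelled vector held 100 Il1b UMIs against 1 UMI labelled SPP1, and 98.0% of the 100 lay in 3 cells. Tnf in T-like cells stood at 25.1 CPM (11.5 to 47.6) labelled SPP1 and 51.9 CPM (35.0 to 74.0) labelled vector, on 9 and 30 UMIs. These intervals overlap.

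The signalling receptor gene Il1r1 had other sources than the ligands. Among classes with over 10 cells in each library it was highest in fibroblast-like cells, at 242 CPM (197 to 295) labelled SPP1 and 422 CPM (365 to 486) labelled vector. The 8 and 4 pericyte/smooth muscle-like cells had 12 and 2 UMIs, at 274 CPM (142 to 479) labelled SPP1 and 111 CPM (13.5 to 402) labelled vector. The tumour compartment stood at 35.6 CPM (34.6 to 36.6) and 45.8 CPM (44.7 to 47.0), and because of its size it held 89.6% and 89.8% of the Il1r1 UMIs. Endothelial-like cells stood at 32.3 CPM (13.9 to 63.7) labelled SPP1 and 70.7 CPM (38.7 to 119) labelled vector, which does not differ from the tumour compartment beyond the intervals. Macrophage/monocyte-like cells were near the low end, at 5.31 CPM and 6.09 CPM, on 29 and 43 UMIs. Il1r1 in T-like cells differed between the libraries, at 15 UMIs labelled SPP1 and 3 UMIs labelled vector, but 3 cells held 86.7% of the 15.

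The decoy gene Il1r2 lay mostly in myeloid cells, with 60.1% of its UMIs labelled SPP1 and 54.0% labelled vector in macrophage/monocyte-like cells and 18.7% and 26.6% in dendritic-like cells. Per UMI it was highest in dendritic-like cells, at 318 CPM (246 to 405) labelled SPP1 and 567 CPM (490 to 652) labelled vector. T-like cells had 55.7 CPM (34.0 to 86.0) and 91.6 CPM (68.6 to 120), and macrophage/monocyte-like cells 38.8 CPM (33.8 to 44.4) and 56.0 CPM (50.6 to 61.8), again labelled SPP1 and labelled vector. Of the 20 and 53 Il1r2 UMIs in T-like cells, 3 cells held 60% labelled SPP1 and 56.6% labelled vector. T-like cells with no UMI of Cd8a stood at 162 CPM labelled SPP1 and 165 CPM labelled vector. T-like cells with a UMI of Cd8a, a co-receptor gene of cytotoxic T cells, stood at 15.4 CPM and 38.7 CPM. Il1r2 in the tumour compartment was at 0.213 CPM and 0.309 CPM.

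The prostaglandin genes split between tumour compartment, fibroblasts and macrophages. Ptgs2 stood at 879 CPM (854 to 904) labelled SPP1 and 1154 CPM (1129 to 1180) labelled vector in macrophage/monocyte-like cells. Fibroblast-like cells had 700 CPM (621 to 786) and 470 CPM (409 to 536), and the tumour compartment 274 CPM (271 to 277) and 276 CPM (274 to 279). Although lower per UMI there, the tumour compartment held 82.1% and 77.1% of all Ptgs2 UMIs. Ptgs1 stood at 63.1 CPM labelled SPP1 and 56.0 CPM labelled vector in the tumour compartment and at 63.7 CPM and 37.1 CPM in macrophage/monocyte-like cells, so the classes were alike labelled SPP1 and the tumour compartment was higher labelled vector. The tumour compartment held 90.2% of its UMIs in each library. The synthase gene Ptges stood in the tumour compartment at 34.7 CPM (33.8 to 35.7) labelled SPP1 and 27.3 CPM (26.5 to 28.2) labelled vector. The compartment held 90.2% and 90.7% of its UMIs, a share that also reflects its size. Fibroblast-like cells had 12.4 CPM labelled SPP1 and 21.5 CPM labelled vector of Ptges, on only 5 and 10 UMIs. Macrophage/monocyte-like cells had 7.33 CPM and 4.68 CPM.

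Il6 was sparse and was found in several cell classes. Endothelial-like cells had 72.7 CPM (43.1 to 115) labelled SPP1 and 217 CPM (157 to 293) labelled vector, and fibroblast-like cells 47.0 CPM (28.3 to 73.4) and 166 CPM (131 to 207). The endothelial-like values rest on 18 and 43 UMIs. These cells also carried fibroblast markers, at a sum of 1430 CPM and 1783 CPM, against 5395 CPM and 6167 CPM in fibroblast-like cells. The part of RNA from other cells in them was not tested. Macrophage/monocyte-like cells stood at 30.2 CPM (25.8 to 35.2) and 32.3 CPM (28.3 to 36.8), and the tumour compartment at 10.1 CPM and 11.4 CPM. No Il6 UMI was found in T-like cells of either library. In dendritic-like cells of the library labelled vector, 34 of 35 Il6 UMIs lay in the 11 cells with a UMI of Ccr7, the homing receptor of migrating dendritic cells. Only 4 of these 11 cells had an Il6 UMI. Labelled SPP1, dendritic-like cells had 3 Il6 UMIs, of which 2 lay in 1 cell with a UMI of Ccr7.

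**Figure D2:**
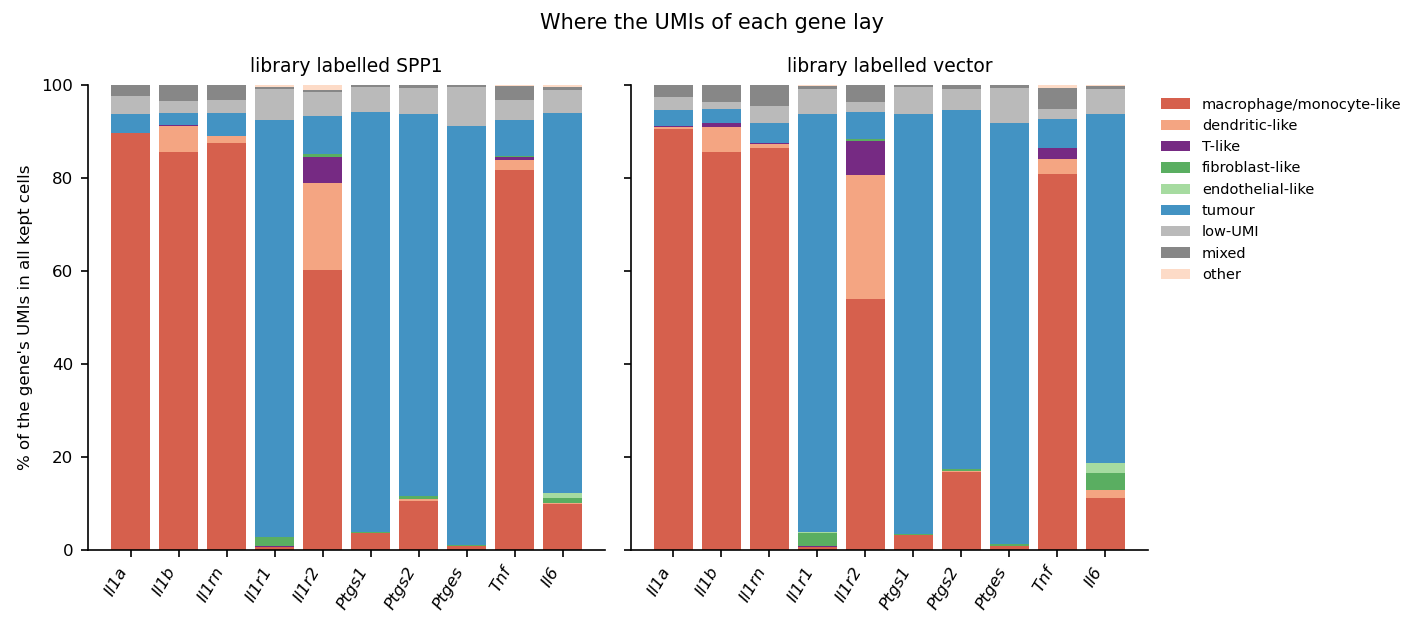
Share of each gene's UMIs (y axis, percent of UMIs in all kept cells) by cell class, with the library labelled SPP1 on the left and the library labelled vector on the right. Macrophages fill most of the bars of Il1a, Il1b, Il1rn and Tnf, and the tumour compartment those of Il1r1, Ptgs1, Ptgs2, Ptges and Il6, in both libraries.

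Set against the tumour compartment of the same library, 5 of the 10 genes were 4-fold or more higher in macrophage/monocyte-like cells in both libraries, and 2 were 4-fold or more lower. Of all 15474 genes with enough UMIs (50 or more), 7.32% were higher and 12.9% lower by this rule. The median gene with 1000 or more UMIs was itself lower in macrophages, by a log2 ratio of -0.47 labelled SPP1 and -0.48 labelled vector, so that ratios relative to the median gene are higher than those given here by that amount. Il1b was 774-fold higher in macrophages in the library labelled SPP1 and 570-fold higher in the library labelled vector. Il1a was 550-fold and 524-fold higher, Il1rn 447-fold and 394-fold, Tnf 267-fold and 255-fold, and Il1r2 183-fold and 181-fold. Il1r1 ran the other way, 6.70-fold and 7.52-fold higher in the tumour compartment, and Ptges was 4.74-fold and 5.84-fold higher there.

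The other 3 genes lay between. Ptgs2 was 3.21-fold higher in macrophages in the library labelled SPP1 and 4.18-fold higher in the library labelled vector, and passed 4-fold in both when ratios were centred on the median gene. Il6 was 2.997-fold higher in macrophages labelled SPP1 and 2.84-fold higher in those labelled vector. Ptgs1 had log2 ratios of 0.01 (-0.15 to 0.17) labelled SPP1 and -0.59 (-0.78 to -0.41) labelled vector, and that of the library labelled SPP1 changed sign in 5 of the alternatives tried.

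The macrophage genes had few UMIs in the tumour compartment, where macrophage markers were also found, and the part of macrophage RNA in them was not tested. Per 1000 UMIs of the 14 macrophage markers in the same cells, the tumour compartment had 33.0 Il1b UMIs labelled SPP1 and 77.7 labelled vector, and macrophage/monocyte-like cells had 47.0 and 88.8. For Il1a the counts per 1000 marker UMIs were 11.7 and 12.5 in the tumour compartment and 11.9 and 13.1 in macrophages, labelled SPP1 and labelled vector. For Il1rn they were 16.2 and 22.5 in the tumour compartment against 13.4 and 17.8 in macrophages, and for Il1r2 5.66 and 9.37 against 1.90 and 3.40. For Tnf they were 17.95 and 17.41 in the tumour compartment against 8.85 and 8.90 in macrophages. For Ptgs2 the count was 7285 and 8385 in the tumour compartment against 43.1 and 70.2 in macrophages. These counts were close between the classes for Il1a and unequal for Il1b, Il1rn, Il1r2, Tnf and Ptgs2. With each cell thinned to 1000 UMIs, 31.8% and 42.5% of macrophages had an Il1b UMI, labelled SPP1 and labelled vector, against 0.155% and 0.365% of the tumour compartment, and unthinned the shares were 52.6% and 62.0% against 1.69% and 3.48%. Median depth was 7563 and 7984 UMIs per macrophage and 12151 and 12582 per cell of the tumour compartment.

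Between the libraries, Il1b was lower and Ptgs1 higher in macrophages of the library labelled SPP1. Ptges was also higher, but on 40 and 33 UMIs and with an interval that includes 0. These 3 of the 10 genes differed by 1.5-fold or more in macrophage/monocyte-like cells, against 7.06% of 10221 genes with 50 or more UMIs. In the higher direction the share of all genes was 4.21% and in the lower direction 2.86%. The median log2 ratio of the 10 genes, SPP1 over vector, was -0.10, and that of all genes -0.01.

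Il1b stood at 959 CPM (933 to 985) labelled SPP1 and 1459 CPM (1431 to 1488) labelled vector, a log2 ratio of -0.61 (-0.65 to -0.56). The difference was close to the 1.5-fold mark and fell short of it under 4 alternatives, with the smallest value, -0.33, when the macrophage subclusters were given equal weights in both libraries. The lower quartile of macrophages was 0 Il1b UMIs in both libraries. The median was 1.05 UMIs per 10000 UMIs labelled SPP1 and 4.51 labelled vector, and the upper quartile 11.5 and 22.0, while the highest cell had 174 and 156. The median and the upper quartile were lower in the library labelled SPP1, and the highest cell was not.

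Ptgs1 stood at 63.7 CPM (57.2 to 70.8) labelled SPP1 and 37.1 CPM (32.8 to 41.9) labelled vector, a log2 ratio of 0.78 (0.54 to 1.02). It was detected in 29.6% of macrophages labelled SPP1 and 21.1% labelled vector, and after thinning in 6.18% and 4.48%, with intervals of 4.47 to 8.30% and 3.19 to 6.09% that overlap. Thinned, its log2 ratio was 0.43, under the 1.5-fold mark. Ptges had only 40 and 33 UMIs in macrophages, 7.33 CPM against 4.68 CPM, and the interval of its log2 ratio of 0.65 (-0.05 to 1.36) includes 0. Of its UMIs in macrophages, 8 of 40 labelled SPP1 and 4 of 33 labelled vector lay in the subcluster M6, which carried RNA of the tumour compartment. Without M6 the log2 ratio of Ptges was 0.51, under 1.5-fold, and with each cell thinned to 1000 UMIs it was 0.03.

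The other 7 genes were within 1.5-fold. Ptgs2 was lower, at 879 CPM against 1154 CPM, a log2 ratio of -0.39 (-0.45 to -0.34), and so was the decoy Il1r2, with a log2 ratio of -0.53 (-0.78 to -0.28). Tnf was higher by 0.30 (0.17 to 0.43), at 180 CPM labelled SPP1 and 146 CPM labelled vector, and Il1a by 0.16 (0.06 to 0.27), at 242 CPM and 216 CPM. Il1rn had a log2 ratio of -0.11 (-0.20 to -0.01), at 272 CPM and 293 CPM. The intervals of Il6 (-0.39 to 0.20) and Il1r1 (-0.93 to 0.51) include 0. The antagonist and the 2 ligands thus did not move together: Il1b was lower while Il1a was slightly higher and Il1rn nearly level.

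**Figure D3:**
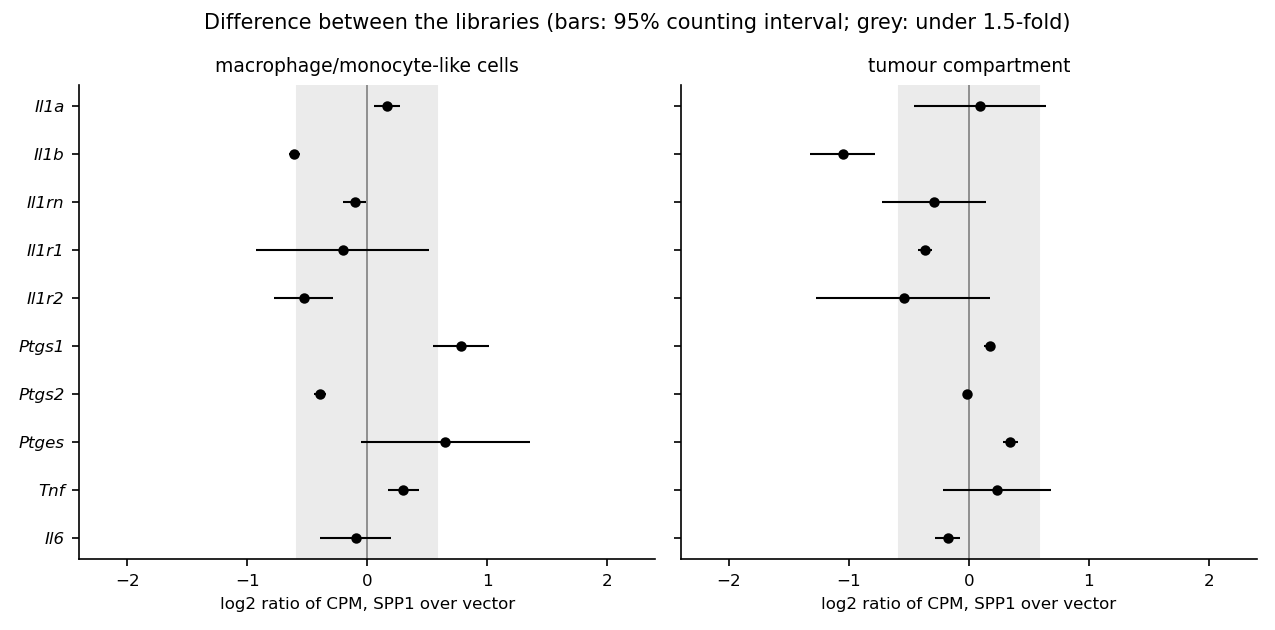
Log2 ratio of CPM, library labelled SPP1 over library labelled vector, for the 10 genes in macrophage/monocyte-like cells (left) and the tumour compartment (right). Points are the ratios of 1 library to 1 library, bars are 95% counting intervals and the grey band is under 1.5-fold. Il1b is left of 0 in both panels, Ptgs1 in macrophages is right of the band, and Ptgs2 in the tumour compartment sits at -0.01.

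In the tumour compartment 1 of the 10 genes, Il1b, differed by 1.5-fold or more, against 8.19% of 17196 genes in either direction, 5.74% in the higher and 2.45% in the lower direction. Its level there was 1.24 CPM (1.06 to 1.44) labelled SPP1 and 2.56 CPM (2.30 to 2.84) labelled vector, a log2 ratio of -1.05 (-1.32 to -0.78), the same direction as in macrophages, and its counts per macrophage-marker UMI are those given above. The genes that the compartment holds in quantity differed less. Il1r1 was lower, with a log2 ratio of -0.37 (-0.42 to -0.31), and Ptges was higher, with 0.35 (0.28 to 0.41). Ptgs1 had 0.17 (0.13 to 0.22), Il6 -0.18 (-0.28 to -0.07) and Ptgs2 -0.01 (-0.03 to 0.01). The directions of Il1r1, Ptges and Ptgs1 held under every alternative tried, and the interval of Ptgs2 includes 0.

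Fibroblast-like cells, 41 in each library, also differed. Il1r1 had a log2 ratio of -0.80 (-1.17 to -0.44), from 98 and 196 UMIs, and Il6 one of -1.82 (-2.63 to -1.08), from 19 and 77 UMIs. Ptgs2 ran the other way, at 0.57 (0.31 to 0.84). The 3 highest cells held 68.4% of the Il6 UMIs labelled SPP1 and 50.6% labelled vector, and 36.0% and 31.7% of the Ptgs2 UMIs. For Il1r1 this share was 33.7% and 38.3%, and the highest cell had 13 and 33 UMIs. An Il1r1 UMI was found in 68.3% and 73.2% of these cells, and after thinning to 1000 UMIs in 20.5% and 18.4%. In dendritic-like cells Il1b had a log2 ratio of -0.18 (-0.37 to 0.01) and Il1r2 one of -0.83 (-1.26 to -0.42), and Ptgs2, at 578 CPM against 236 CPM, had 82.5% and 61.7% of its UMIs in 3 cells.

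Macrophages were not alike in these genes. They were clustered again without the 10 genes and without the 707 genes that differed by 1.5-fold between the libraries, into 9 subclusters. M0, led by Areg, Nrg1, Dcstamp, Olr1 and Thbs1, held 13.9% (11.4 to 16.8%) of macrophages labelled SPP1 and 23.0% (20.2 to 26.0%) labelled vector, and M5, led by Fcrls, Gas6 and Cbr2, 11.5% (9.19 to 14.2%) and 6.21% (4.69 to 8.05%). M1 was led by Ifit1bl1, Ifit3 and Hspa1b, M2 by Plac8 and Ly6c2, M3 by C9 and Ccl8, M4 and M8 by cell cycle genes, M7 by Cpb2 and M6 by Nhs, Timp3 and Col6a1. The mean CPM of the tumour compartment markers in M6 was a fraction of 0.374 of their mean CPM in the tumour clusters. In the other 8 subclusters this fraction was 0.0265 to 0.0466.

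Il1b was highest in M0 and M2. In M0 it stood at 2286 CPM labelled SPP1 and 2715 CPM labelled vector, in M2, the subcluster with the monocyte gene Ly6c2, at 1877 CPM and 2640 CPM, and in M8 at 1409 CPM and 1402 CPM. It was lowest in M3, at 167 CPM and 268 CPM, and also low in M7, at 174 CPM and 336 CPM, and in M6, at 317 CPM and 296 CPM. Within subclusters the log2 ratio was -0.25 (-0.32 to -0.17) in M0, -0.49 (-0.59 to -0.40) in M2 and -0.92 (-1.10 to -0.74) in M4. It was -0.68 (-1.08 to -0.30) in M3 and -0.95 (-1.42 to -0.49) in M7, on lower levels. The intervals include 0 in M1, at -0.16 (-0.32 to 0.004), in M6, at 0.10 (-0.31 to 0.50), in M8, at 0.01 (-0.16 to 0.18), and in M5, at 0.27 (-0.02 to 0.56). M0 held 38.7% of the Il1b UMIs of macrophages labelled SPP1 and 45.7% of those labelled vector. Beside the lower sum in the library labelled SPP1, the share of M0 and the levels within M0, M2, M3, M4 and M7 were also lower there. Their parts in the lower sum were not tested beyond the equal weights.

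Ptgs2 followed Il1b in M0 but less in M2. It stood at 2244 CPM labelled SPP1 and 2513 CPM labelled vector in M0, at 1238 CPM and 1937 CPM in M8, and at 1140 CPM and 978 CPM in M2. M0 held 41.4% and 53.5% of its UMIs in macrophages. Given equal subcluster weights, its log2 ratio between the libraries was -0.10, against -0.39 in the plain sum. Although Ptgs2 took no part in the clustering, it was among the 8 leading genes of M0.

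Il1rn and Il1a were high in M1 as well as M0. Il1rn stood at 518 CPM labelled SPP1 and 376 CPM labelled vector in M1, at 414 CPM and 441 CPM in M0 and at 299 CPM and 382 CPM in M8. Il1a had 550 CPM and 428 CPM in M0 and 404 CPM and 336 CPM in M1. The log2 ratio of Il1a between the libraries was above 0, with an interval clear of 0, in M0, M1, M2, M3, M4 and M5. It was 0.36 in M0, 0.27 in M1, 0.56 in M2 and 0.76 in M4. In M5 Il1a stood at 145 CPM labelled SPP1 against 62.8 CPM, and in M3 at 59.8 CPM against 25.04 CPM. It was lower in M6, at 70.8 CPM against 129 CPM, and the intervals in M7 and M8 include 0. Il6 was found in 5.83% of macrophages labelled SPP1 and 7.27% labelled vector, and M0 held 46.1% and 49.1% of its UMIs in macrophages.

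Tnf and Ptgs1 had another pattern. Tnf was highest in M5, where Il1b stood at 453 CPM and 377 CPM, at 325 CPM labelled SPP1 and 220 CPM labelled vector, and stood at 98.2 CPM and 129 CPM in M0. Its log2 ratio between the libraries was 0.56 (0.20 to 0.94) in M5 and -0.39 (-0.76 to -0.03) in M0. Ptgs1 had 101 CPM and 53.2 CPM in M5 and 92.8 CPM and 35.4 CPM in M3. Its log2 ratio was above 0 with an interval clear of 0 in 6 subclusters, M0, M1, M2, M3, M5 and M8, with values between 0.84 and 1.39. In M4 it was 0.09 (-0.47 to 0.66), in M7 0.14 (-0.85 to 1.15) and in M6 -1.17 (-2.53 to 0.02).

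**Figure D4:**
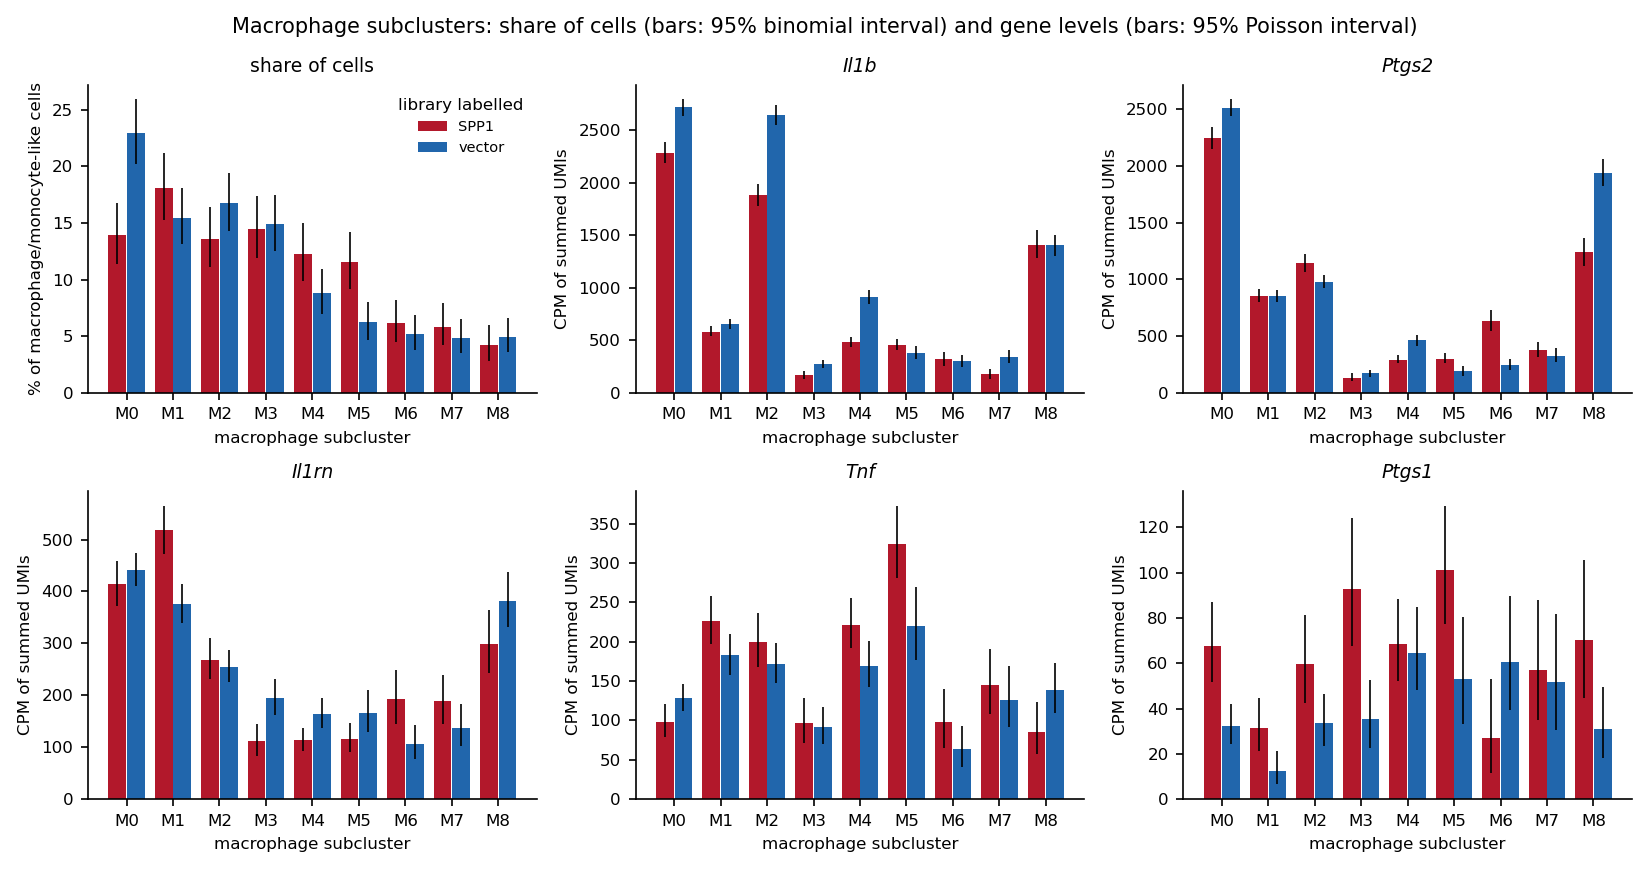
Share of macrophage/monocyte-like cells in 9 subclusters (first panel, percent, bars with 95% binomial intervals) and CPM of Il1b, Ptgs2, Il1rn, Tnf and Ptgs1 in them (bars with 95% Poisson intervals), with the library labelled SPP1 left of the library labelled vector. Il1b and Ptgs2 peak in M0, Tnf in M5, and the Ptgs1 bars labelled SPP1 stand above those labelled vector in 8 of 9 subclusters.

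Single cells showed the same pairing. Thinned to 1000 UMIs, 52.1% of macrophages with an Il1b UMI also had a Ptgs2 UMI in the library labelled SPP1, and 20.6% of those without one. In the library labelled vector the shares were 50.4% and 24.4%. Unthinned, they were 68.2% and 39.1% labelled SPP1 and 69.4% and 38.3% labelled vector. Thinned, Tnf was found in 14.7% of Il1b-positive and 15.9% of Il1b-negative cells labelled SPP1, and in 15.2% and 11.5% labelled vector. Ptgs1 was found in 4.27% and 7.08% of these cells labelled SPP1 and in 4.43% and 4.51% labelled vector.

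Across 18 points, the 9 subclusters in each library, levels of Il1b and Ptgs2 had a Pearson correlation of 0.86, on log2 CPM with 1 added. The points of 1 library share its depth and the subclusters come from the same cells, so this is a description. Il1b and Tnf had 0.12, and Ptgs1 had negative values with Il1rn (-0.59) and Ptgs2 (-0.37). Among 6439 genes, those most like Il1b were Cd80 (0.97), Pde4b (0.95) and Arl5b (0.94), and those most like Ptgs2 were Rab11fip1 (0.98), Cd14 (0.94) and Nfil3 (0.94). Fnip1, Rasgef1b and Fbxw11 were most like Tnf, at 0.87, 0.87 and 0.86, and Ntpcr, Pycard and Ndufb7 were most like Ptgs1, at 0.79, 0.79 and 0.78.

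The tumour compartment was divided into 12 clusters, and Il6 and Ptgs2 varied across them. Cluster 1, led by Ogn, Aspn and Dpt, had the highest Il1r1 level among clusters with 100 or more cells in each library, at 70.7 CPM labelled SPP1 and 87.3 CPM labelled vector. It also carried much of Il6, at 39.6 CPM and 33.4 CPM, which was 46.2% and 61.5% of the Il6 UMIs of the compartment. Cluster 12, led by the interferon-induced genes Ifit3 and Ifit1, had 45.5 CPM and 37.4 CPM of Il6, of which 3 cells held 37.2% and 55.2%. Cluster 3, led by histone genes, had 0.90 CPM labelled SPP1 and 1.94 CPM labelled vector. The cells of cluster 1 made up 1524 cells labelled SPP1 and 2669 labelled vector, and cluster 5, which stands at 40.1 CPM of Il1r1 labelled SPP1, had 1707 cells there and 50 labelled vector.

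Ptgs2 was at 168 CPM or above in each cluster and library except cluster 6, led by Ppm1n and Muc13, at 30.7 CPM labelled SPP1 and 36.5 CPM labelled vector. In cluster 7, led by Fbxl7 and Slc7a2, Ptgs2 stood higher in SPP1-labelled cells, at 359 CPM against 184 CPM, a log2 ratio of 0.96 (0.89 to 1.03). In cluster 2, led by Prl2c2 and Il1rl1, it was lower, at 343 CPM against 426 CPM, a log2 ratio of -0.31 (-0.36 to -0.27). These opposite differences do not appear in the sum over the compartment. Il6 was also higher in cluster 7 labelled SPP1, at 19.7 CPM against 4.06 CPM, but 3 cells held 54.6% of it. Ptges varied little across clusters labelled SPP1, between 28.9 and 41.2 CPM labelled SPP1 and between 16.4 and 43.0 CPM labelled vector, and its log2 ratio between the libraries was above 0 in 11 of 12.

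**Figure D5:**
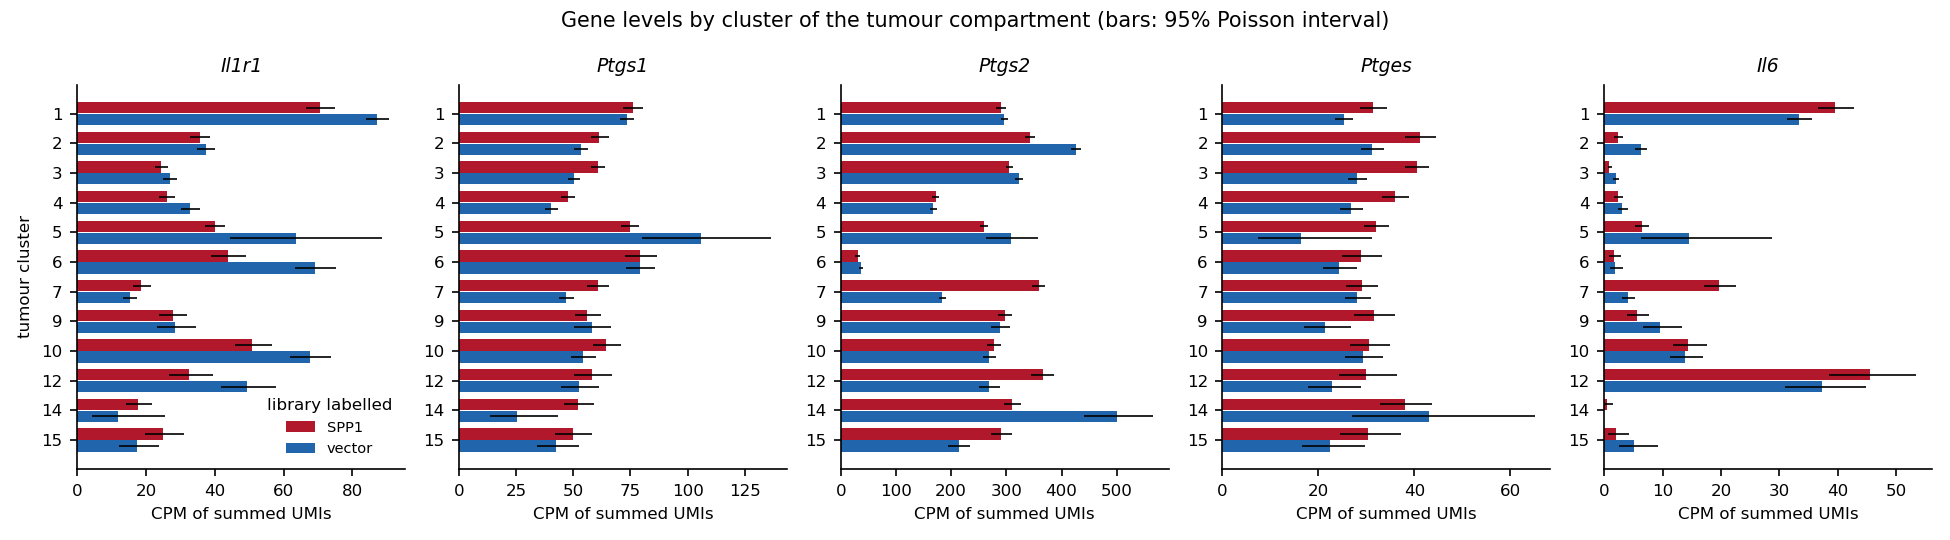
CPM of Il1r1, Ptgs1, Ptgs2, Ptges and Il6 in 12 clusters of the tumour compartment, with the library labelled SPP1 above the library labelled vector and 95% Poisson intervals. Clusters 5 and 14 hold 50 and 27 cells in the library labelled vector. Cluster 6 stands low in Ptgs2, and clusters 1 and 12 stand high in Il6.

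A further 6 lists of pathway genes were counted by the same 1.5-fold rule, which 7.06% of all genes passed in macrophages and 8.19% in the tumour compartment. Of the interleukin 1 pathway, 15 of 22 genes could be counted in macrophages, 1 was higher and 0 lower, with a median log2 ratio of -0.09 against -0.01 over all genes. The higher gene was Il18, another cytokine of the family, at 27.7 CPM labelled SPP1 and 17.6 CPM labelled vector. Nfkbia, which encodes an inhibitor of NF-kappa B, stood at 1183 CPM and 1204 CPM. Of the list, 18 in the tumour compartment could be counted, and 1, the receptor gene Il1rl2, was lower. The shared co-receptor gene Il1rap stood at 135 CPM and 166 CPM in the tumour compartment and 49.8 CPM and 52.3 CPM in macrophages. Per UMI, Il33 was high in fibroblast-like cells, at 153 CPM and 336 CPM, against 0.411 CPM and 0.559 CPM in the tumour compartment. The far larger tumour compartment still held 56 and 76 Il33 UMIs.

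Of 9 genes of the inflammasome and of cytokine processing, which encode sensors, an adaptor, a pore-forming protein and proteases, 9 could be counted in macrophages and 0 passed 1.5-fold in either direction, with a median of -0.12. The sensor gene Nlrp3 stood at 440 CPM labelled SPP1 and 483 CPM labelled vector in macrophages and at 1.07 CPM and 0.92 CPM in the tumour compartment, and it was one of 5 genes of the list that were 4-fold higher in macrophages in both libraries, against 7.32% of all genes. There, 8 could be counted and 0 passed.

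Among 17 genes of prostaglandin synthesis and breakdown, 13 could be counted in macrophages, of which 3 were higher and 1 was lower, with a median of -0.12, where 4.21% of all genes were higher and 2.86% lower. The higher ones were Hpgds, the synthase of prostaglandin D2, at 114 CPM labelled SPP1 and 73.8 CPM labelled vector, Hpgd, which breaks prostaglandins down, at 12.5 CPM and 6.66 CPM, and Ltc4s, a leukotriene synthase, at 17.95 CPM and 8.22 CPM. The lower one was Pla2g7, at 80.4 CPM and 128 CPM. Pla2g4a, whose enzyme frees arachidonic acid, stood at 127 CPM and 149 CPM in macrophages, at 83.6 CPM and 94.9 CPM in the tumour compartment and at 331 CPM and 205 CPM in fibroblast-like cells. In the tumour compartment 12 could be counted and 0 passed, with a median of -0.16.

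Of the receptors for prostaglandin E2, Ptger2 and Ptger4 were higher in macrophages than in the tumour compartment, by 4-fold or more in both libraries. Ptger4 stood at 313 CPM labelled SPP1 and 320 CPM labelled vector in dendritic-like cells, at 127 CPM and 127 CPM in macrophages and at 58.5 CPM and 67.4 CPM in T-like cells, against 1.73 CPM and 1.35 CPM in the tumour compartment. Ptger2 had 71 UMIs labelled SPP1 and 127 labelled vector in macrophages, with 1 and 4 UMIs in the tumour compartment. Ptger1 had 3 and 4 UMIs in macrophages and 95 and 75 in the tumour compartment, and Ptger3 had 0 and 2 UMIs and 62 and 42 UMIs there, labelled SPP1 and labelled vector. Of 9 prostanoid receptor genes only Ptger2 and Ptger4 could be counted in macrophages, and 0 passed 1.5-fold. In the tumour compartment 5 could be counted and 1, the prostacyclin receptor gene Ptgir, was higher, at 0.323 CPM and 0.147 CPM.

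In the list of receptors and signalling genes of TNF and interleukin 6, 13 of 15 could be counted in macrophages and 0 passed, and in the tumour compartment 15 could be counted and 2 were lower, where 2.45% of all genes were lower. These were Osmr, a receptor chain for oncostatin M, at 22.3 CPM labelled SPP1 and 33.5 CPM labelled vector, and Lifr, at 2.82 CPM and 4.33 CPM. The ligand gene Osm stood at 426 CPM and 487 CPM in macrophages. Of 18 known targets of interleukin 1 and TNF, 11 could be counted in macrophages and 0 passed, with a median of 0.19, and 12 in the tumour compartment, where 1, the chemokine gene Ccl7, was lower at 98.1 CPM against 152 CPM. Cxcl2, a neutrophil-attracting chemokine, stood at 3518 CPM and 3184 CPM in macrophages, and Cxcl1 at 578 CPM and 493 CPM in the tumour compartment.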

How the data were processed

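The 2 libraries of single-cell RNA, 1 per group, were read with UMI counts per gene and cell as deposited by the authors. Per the submitters' processing notes they used Cell Ranger 2.1.1 and build GRCm39; the annotation is not given in the sources used here. Cells needed 300 genes and 500 UMIs, with mitochondrial UMIs at 15% or under, 458 and 398 doublets, called against simulated doublets, were removed from the libraries labelled SPP1 and vector, and cells were clustered (2000 variable genes without the 10 genes, 30 components, 20 neighbours, Leiden resolution 1.0, scanpy 1.11.5, leidenalg 0.10.2). Clusters were named from marker lists where at least 3 markers and 50% of a list were raised with a mean log2 of 2 or more. Clusters without a name and with 0.5 of the median UMIs or more made up the tumour compartment. Clusters without a name and with under 0.5 of the median UMIs (2551 and 2704 cells) were not among the compared classes. The same holds for mixed cells (273 and 300) and stromal cells without a name (27 and 6). The mixed cells came from a cluster with macrophage markers (216 and 274) and 1 with pericyte/smooth muscle markers (57 and 26). All these cells were counted in the totals over kept cells, and so in the shares of a gene's UMIs. These naming rules were set with the data known. Members and lists were chosen with earlier results of these data known. From each list up to 4 genes with most UMIs in the class could be named, and for a member the 3 genes most alike. Genes past 1.5-fold, Il1rap, Il33 and Cd8a and Ccr7 as splits were named after their values were seen.

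Counts were summed per class and library. A gene needed 50 UMIs over both sides. Ratios, intervals and calls were tested on simulated data. CPM compares 1 gene between cells; a fall in the RNA of other genes raises it. PCR and droplet effects between the libraries are not covered by the counting intervals. With 1 library per group there are no replicates, and 12 alternatives were planned and 5 added after seeing the data.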

Additional observations from a re-analysis of the deposited data

How the results depend on the processing

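No paired analysis was possible because each group has 1 library, and for the same reason no library could be left out. In macrophages the count of members past 1.5-fold between the libraries lay between 2 and 4 under the alternatives, against 3. Il1b fell under 1.5-fold when ratios were centred on the median gene (-0.57), with equal subcluster weights (-0.33), without M0 (-0.58) and with mixed cells joined (-0.58). It ranged between -0.75 and -0.33 in all. Ptgs1 ranged between 0.43 and 0.88, and Ptges between 0.03 and 0.87. Of 130 log2 ratios in macrophages, 125 kept their sign. The other 5 were those of Il1rn, Il1r1 and Il6. In the tumour compartment the count was 2 in place of 1 with a mean over cells, at resolution 2.0 and without the 3 highest cells, Il1r2 joining Il1b, and 106 of 110 ratios kept their sign. Of 240 ratios of macrophages to the tumour compartment, 235 kept their sign, the other 5 all of Ptgs1. The count past 4-fold there was 6 when centred, with Ptgs2, and 4 when thinned, without Il1r2. The alternatives without the shared barcodes, M6 or M0, and those joining the mixed or low-UMI clusters, were chosen after seeing the data. Il1r1 and Ptges in macrophages, Il1r2 in the tumour compartment and every gene in the smaller classes rest on few UMIs. Cell classes, subclusters and the library difference come from the same cells, and 1 mouse per group does not show how mice differ.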
